A study of Homo sapiens with 16 samples.

Results

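Skeletal muscle-like cells of human kidney organoids were chosen by a gate on measured UMIs, so the gate genes are not evidence for anything here. A cell was a member when it had more than 500 detected genes and at least 1 UMI (unique molecular identifier, 1 counted RNA molecule) in at least 4 of 8 sarcomere genes: MYL1, TNNC1, MYLPF, MYBPH, TNNC2, ACTA1, MYH3 and TNNT3. The gate kept 1094 of 35066 cells. In the control library (VC) it kept 220 of 11906 cells, a share of 1.85% (95% Clopper-Pearson interval 1.61 to 2.11). In the library treated with the cytokine TNFα (TNF) it kept 874 of 23160 cells, a share of 3.77% (3.53 to 4.03).

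The organoids were grown from the human embryonic stem cell line UM77-2 and dissociated with a cold-active protease; both libraries are labelled day 24. One was from organoids that had received TNFα at 5 ng per ml for 24 h and the other was its 24 h control. Each condition is a single 10x Genomics 3′ library, so no difference between VC and TNF has a replicate check and none was tested; intervals cover counting error only. The VC cells held 100623461 UMIs in all and the TNF cells 91152175, and the libraries shared 74 barcodes, of which 0 were members. Bulk RNA-seq of organoids under the same treatment added 4 libraries, VC and TNF at 24 h and at 48 h, all collected at day 25. Those came from isolated spheroids, while the single cells came from whole wells, so age and material both differ between the assays.

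Skeletal muscle forms when mononucleated myoblasts, which carry the transcription factors MYF5 and MYOD1, leave the cell cycle, switch on MYOG and fuse into multinucleated fibres. The fibre's contractile unit, the sarcomere, slides myosin thick filaments along actin thin filaments between Z-discs, and calcium released through the receptor RYR1 starts the contraction. Fetal muscle uses isoforms that adult fibres later replace, among them embryonic myosin MYH3, the cardiac-type actin ACTC1 and the gamma subunit of the acetylcholine receptor. Kidney organoids differentiate from mesoderm and are known to hold off-target cells, muscle-like cells among them.

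The gate ran through a continuous distribution rather than a gap, and the libraries differed in its shape. In VC, 57 cells had 3 gate genes, just outside the gate, and 44, 40, 33, 40 and 63 cells had 4, 5, 6, 7 and 8. In TNF, 657 cells had 3, and 389, 221, 113, 72 and 79 cells had 4 to 8. The VC counts were thus spread over the classes of members and the TNF counts were weighted to the edge of the gate. With at least 6 gate genes the shares were equal, 1.14% (136 cells, 0.959 to 1.35) in VC and 1.14% (264 cells, 1.01 to 1.29) in TNF. A cell just outside the gate held a median of 7 gate UMIs in VC and 4 in TNF, and one just inside held 22.5 and 7. A member with all 8 held 315 in VC and 209 in TNF.

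**Figure D1:**
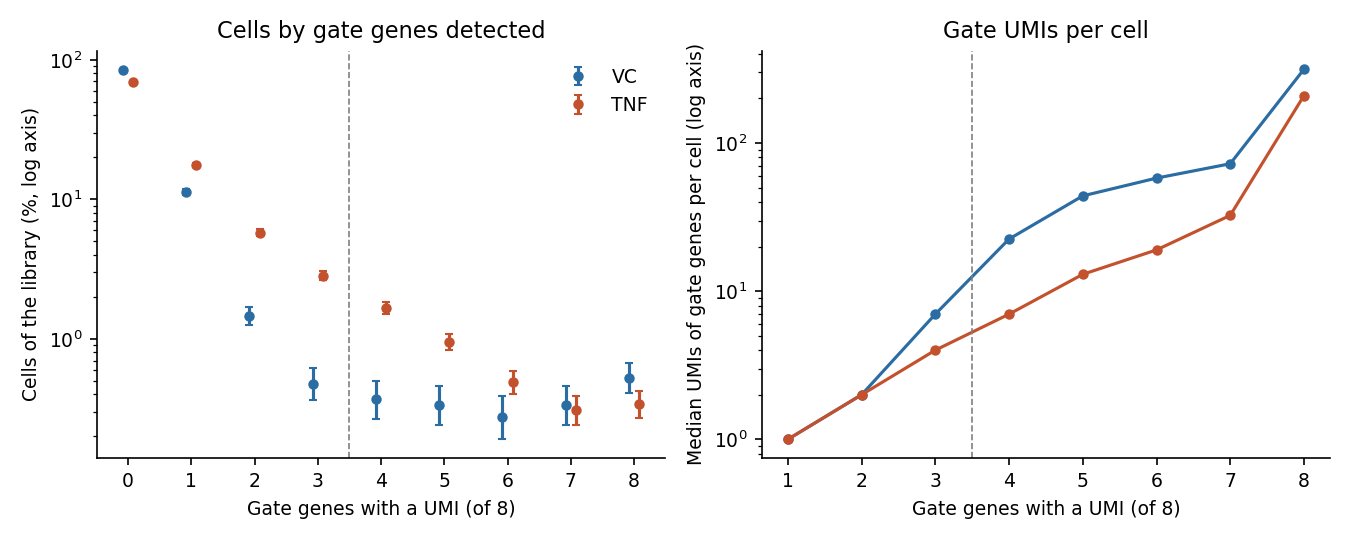
Left, percent of the cells of each library (log axis) by the number of gate genes with a UMI, with 95% Clopper-Pearson bars for VC (blue) and TNF (red); right, the median UMIs of the gate genes per cell (log axis). The dashed line is the gate; TNF lies above VC from 1 to 6 gate genes in the left plot and below VC from 3 gate genes on in the right plot.

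Depth and background moved with this difference. Members held a median of 11269 UMIs in VC and 3093.5 in TNF, other cells 6313.5 and 2586. Gate genes made up 26.1 CPM (UMIs of a gene or list per 1000000 UMIs of the class) of all other cells in VC and 138 CPM in TNF. In cells that passed a podocyte gate (at least 4 of 8 podocyte genes) and lay outside the muscle gate, which should lack sarcomere genes, they made up 33.6 and 126 CPM. Of all podocyte-gate cells (median 6223.5 UMIs in VC, 3058 in TNF), 73.8% in VC and 66.3% in TNF had no gate gene, and 2.56% (1.88 to 3.40) and 3.31% (2.84 to 3.84) met the muscle gate. With at least 6 gate genes these became 2.06% (1.45 to 2.83) and 0.780% (0.558 to 1.06). Without thinning, the member share was therefore not above that of podocyte-gate cells in VC and was near it in TNF. Passing the gate alone is thus not read as expression, and the description rests on levels. With every cell thinned to 1500 UMIs, which left out 953 VC cells and 0 TNF cells, the shares were 1.07% in VC and 1.96% in TNF. With at least 6 gate genes they were 0.511% (0.386 to 0.663) and 0.600% (0.505 to 0.708). Among thinned podocyte-gate cells, 5 of 1189 in VC and 30 of 2548 in TNF met the muscle gate. These were lower shares than over all thinned cells, so after thinning the comparison ran the other way. The part of free RNA in the TNF members near the edge of the gate was not tested. Values below are for all members unless members with at least 6 gate genes are named.

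Summed over cells, members in both libraries held RNA of a broad sarcomere program beyond the gate. Of 10160 non-gate genes with at least 50 UMIs in members over both libraries or 50 CPM in other cells of each, 203 (2.00%) were 2-fold or more above all other cells in both libraries, and 0 (0%) were as far below in both. The fold was taken on UMIs summed over cells, as log2 of CPM plus 10; a 3′ UMI count does not grow with gene length, so CPM is not divided by it. In VC alone 378 genes (3.72%) were 2-fold higher and 286 (2.81%) lower; in TNF alone, 206 (2.03%) and 1 (0.00984%). Of 105 genes on 8 muscle lists that exclude the gate genes, 43 were 2-fold higher in both libraries and 0 lower. The median log2 fold of the 105 was 1.31 in VC and 0.84 in TNF, beside −0.16 and −0.12 over all genes compared. Of the 203 genes, 201 were also 2-fold above other cells in both libraries when only members with at least 6 gate genes were taken. The count of 0 lower depended on the setting. A gate of at least 6 genes gave 317 higher and 35 lower in both libraries, of 7146 compared. A pseudocount of 1 CPM gave 22 lower. The summed level of the 105 was 27435 CPM in VC members and 17439 CPM in TNF members, against 3441 and 4108 CPM in other cells. With at least 6 gate genes the TNF levels were higher and nearer to VC: ACTC1 stood at 5285 CPM in VC and 5170 in TNF, TNNI1 at 4016 and 3647, SMPX at 379 and 377, MYOG at 1363 and 1138, and TTN at 1810 and 1206. For these genes the level in all TNF members was thus well below that in the members with more gate genes, while in VC the gap was smaller. The 79 TNF cells with 8 gate genes held 4980 of 12891 ACTC1 UMIs and 383 of 770 SMPX UMIs of TNF members. A UMI of ACTC1 was present in 96.8% of VC members and 89.4% of TNF members, and one of SMPX in 70% and 31.5%. Depth differed as well, so the sums do not show how many TNF members carried the program. Since genes of one muscle program chose the cells, this is a description of what the gate collected and not a test.

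**Figure D2:**
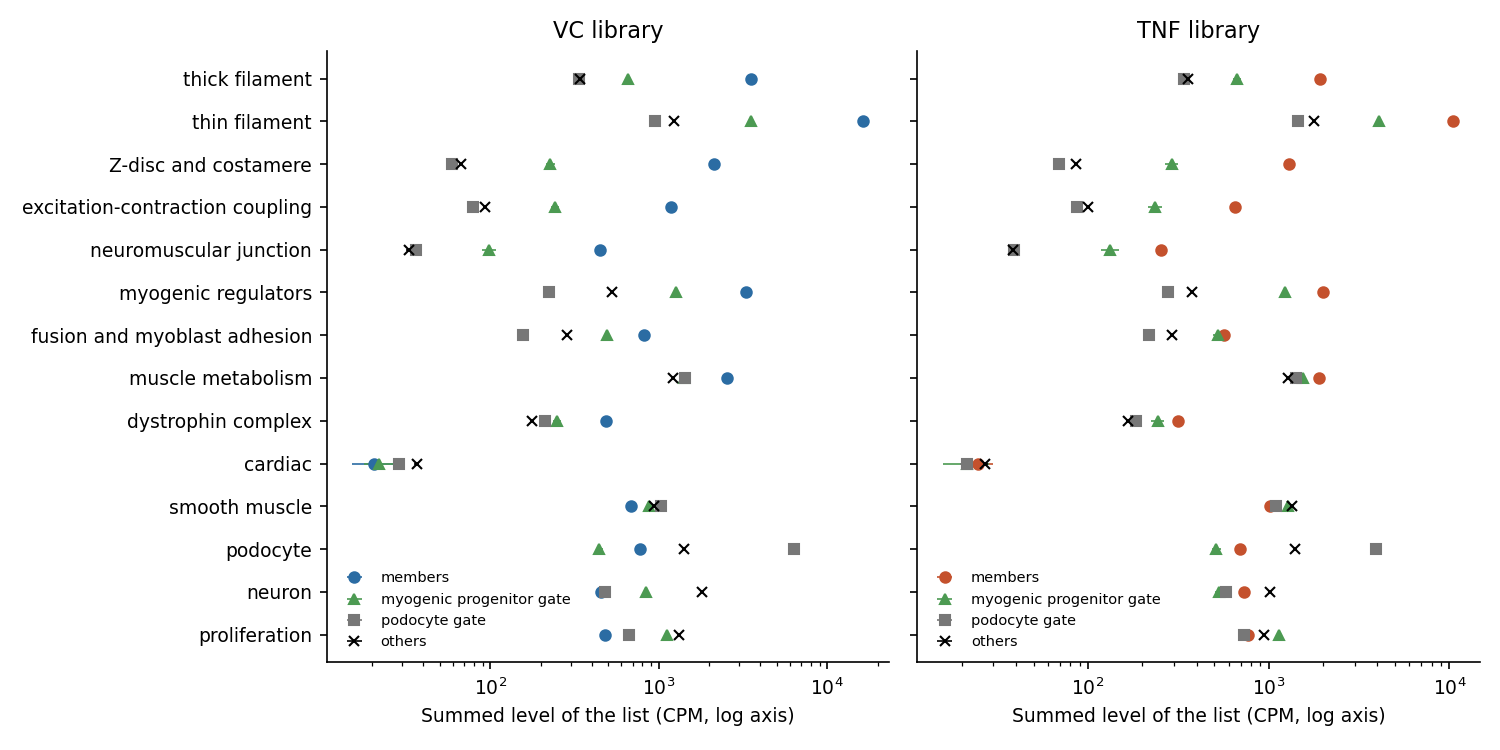
Summed level of each gene list (CPM, log axis) in members, in cells of a myogenic progenitor gate, in cells of a podocyte gate and in all other cells, for VC (left) and TNF (right); bars are 95% Poisson intervals. For every muscle list, from thick filament to dystrophin complex, members lie above all other cells in both libraries; for the cardiac, smooth muscle, podocyte, neuron and proliferation lists they lie to the left of them.

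Thin filament genes gave 8 of 13 2-fold higher in both libraries, beside 2.00% of all genes. That share also stands beside each count of muscle-list genes higher in both libraries below. ACTC1, the actin of the heart and of fetal skeletal muscle, stood at 4951 CPM in VC members and 3067 in TNF members, against 40.7 and 88.5 in other cells, a ratio of 122 (117 to 126) in VC and 34.7 (33.7 to 35.7) in TNF. TNNI1, the slow skeletal troponin I, stood at 3259 and 1972 CPM against 43.9 and 68.9. TNNI2, its fast counterpart, stood at 191 and 119 CPM against 0.703 and 3.27. Both the slow and the fast inhibitory subunit were thus present, and TNNT1, the slow troponin T, stood at 2124 and 1172 CPM. TNNT2, known as the cardiac troponin T and also made in fetal skeletal muscle, stood at 571 and 367 CPM against 9.46 and 18.6. NEB, the giant ruler protein nebulin, stood at 682 and 346 CPM. TPM3, a tropomyosin of slow fibres that most cells also make in non-muscle forms, did not stand out, with log2 folds of −0.23 in VC and −0.10 in TNF. LMOD2 and TMOD4 had 0 UMIs in members of either library.

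Thick filament genes gave 4 of 15. MYL4, the light chain of atrium and of embryonic muscle, stood at 973 CPM in VC members and 543 in TNF members, against 7.69 and 15.1 in other cells. TTN, the titin spring that spans from Z-disc to M-line, stood at 1658 and 714 CPM against 14.5 and 33.9. Perinatal myosin MYH8 had 60 UMIs in VC members and 48 in TNF members. The adult fast myosins MYH1, MYH2 and MYH4 had 1, 3 and 3 UMIs in VC and 0, 0 and 1 in TNF, and the slow myosin MYH7 had 3 and 2. The embryonic myosin MYH3, a gate gene and thus fixed by the rule, had 1812 and 1605 UMIs. The myosin heavy chain genes are similar in sequence, so a few reads may be split between them. MYL2, the ventricular and slow fibre light chain, had 0 UMIs in both. MYOM1 and MYOM3, proteins of the M-line, stood at 38.8 and 21.2 CPM in VC and 31.2 and 8.57 CPM in TNF.

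Z-disc and costamere genes gave 10 of 16. DES, the muscle intermediate filament desmin, stood at 789 CPM in VC members and 507 in TNF members, against 26.0 and 35.3 in other cells. SMPX, a small muscle protein of the costamere, stood at 292 and 183 CPM against 0.601 and 3.07. KLHL41, which stabilises nebulin, stood at 406 and 226 CPM against 4.28 and 8.66. ACTN2, the alpha-actinin of Z-discs, stood at 167 and 89.5 CPM, while ACTN3, the fast fibre form, had 1 and 4 UMIs. NRAP had 0 UMIs in either library. Outside all lists, HSPB3, a small heat shock protein of muscle, stood at 304 and 187 CPM against 0.142 and 2.42. SOHLH2, a transcription factor known from germ cells, stood at 357 and 169 CPM against 1.57 and 4.36. Of the 203 genes, 150 were on none of the lists.

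Sequence upstream of these genes was read from RefSeq (GRCh38.p14), as the 250 bases before each gene's start. It was searched on both strands for the letters CAGCTG, an E-box of the kind that MYOD1 and MYOG bind, and for the 10-letter MEF2 motif; both patterns read the same on either strand, and they do not overlap in the windows shown. Of the 43 muscle-list genes 2-fold higher in both libraries, 31 matched a RefSeq entry; 16 windows (51.6%) held CAGCTG, 10 (32.3%) held the MEF2 motif and 6 held both. Of the other 62 muscle-list genes 44 matched, with 11 (25.0%), 6 (13.6%) and 1. Over all 27305 promoters of this length the shares were 13.8% and 2.90%. A match is a description of letters, not a bound site. Shown here are the 4 of the 6 windows with both motifs whose genes had the most UMIs in VC members, with each motif in capitals; they are KLHL41 at chr2:169509452-169509701 (plus strand), MYOZ2 at chr4:119135582-119135831 (plus), COX6A2 at chr16:31428361-31428610 (minus) and CAV3 at chr3:8733552-8733801 (plus).
KLHL41: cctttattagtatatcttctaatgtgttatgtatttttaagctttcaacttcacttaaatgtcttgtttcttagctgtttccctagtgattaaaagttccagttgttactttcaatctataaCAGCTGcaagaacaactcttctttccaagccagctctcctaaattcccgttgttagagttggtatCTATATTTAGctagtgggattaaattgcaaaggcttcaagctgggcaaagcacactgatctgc
MYOZ2: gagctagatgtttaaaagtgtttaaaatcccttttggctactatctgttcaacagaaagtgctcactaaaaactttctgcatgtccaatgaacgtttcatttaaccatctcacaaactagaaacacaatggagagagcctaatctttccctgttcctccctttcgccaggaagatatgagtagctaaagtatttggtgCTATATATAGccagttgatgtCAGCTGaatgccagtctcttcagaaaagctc
COX6A2: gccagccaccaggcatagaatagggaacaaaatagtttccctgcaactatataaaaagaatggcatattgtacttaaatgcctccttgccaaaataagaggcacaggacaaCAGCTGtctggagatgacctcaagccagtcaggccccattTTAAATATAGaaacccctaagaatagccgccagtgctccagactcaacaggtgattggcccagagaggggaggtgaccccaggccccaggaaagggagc
CAV3: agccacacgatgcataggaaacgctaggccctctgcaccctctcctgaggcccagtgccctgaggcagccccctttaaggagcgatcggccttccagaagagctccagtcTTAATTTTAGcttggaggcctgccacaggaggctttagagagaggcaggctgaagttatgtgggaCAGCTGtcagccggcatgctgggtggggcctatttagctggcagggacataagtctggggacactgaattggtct

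The genes of these windows were each low in other cells. MYOZ2, a Z-disc anchor of calcineurin, stood at 86.5 CPM in VC members and 67.3 in TNF members, against 0.163 and 1.30 in other cells. COX6A2, the muscle form of a cytochrome oxidase subunit, stood at 77.1 and 45.7 CPM against 0.275 and 1.001. CAV3, the caveolin of the muscle membrane, stood at 61.2 and 31.2 CPM against 0.0407 and 0.518.

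Excitation-contraction coupling genes gave 8 of 18. RYR1, the skeletal calcium release channel, stood at 141 CPM in VC members and 63.5 in TNF members, against 4.81 and 6.14 in other cells. STAC3, which couples that channel to the voltage sensor, stood at 210 and 121 CPM against 2.43 and 4.45. CACNA1S, the voltage sensor itself, stood at 20.8 and 9.28 CPM, with 51 and 39 UMIs, against 0.0917 and 0.311 CPM in other cells. Of the calsequestrins, which hold the stored calcium, CASQ2 stood at 71.0 and 40.2 CPM, while CASQ1, the form of adult fast fibres, had 0 UMIs in both. ATP2A1, the fast fibre calcium pump, stood at 62.9 and 32.1 CPM against 1.79 and 2.09 in other cells. MRLN, a micropeptide that restrains that pump, stood at 273 and 150 CPM against 4.20 and 6.66.

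Neuromuscular junction genes gave 4 of 9. The receptor subunits CHRNA1, CHRND and CHRNG stood at 152, 71.0 and 46.9 CPM in VC members and 88.3, 30.5 and 27.6 CPM in TNF members, and each was below 4 CPM in other cells of both libraries. CHRNE, the adult subunit that replaces CHRNG, had 3 UMIs in VC members and 15 in TNF members, with log2 folds over other cells of −0.05 and 0.17. RAPSN, which clusters the receptor, stood at 72.7 and 38.3 CPM against 0.530 and 1.24. MUSK, the receptor kinase that starts clustering, had 59 and 45 UMIs.

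Of 15 myogenic regulators, 6 were 2-fold higher in both libraries, beside 2.00% of all genes, MYOG and MYOD1 among them. MYOG, the factor of terminal differentiation, stood at 1377 CPM in VC members and 733 in TNF members, against 11.2 and 22.4 in other cells; 92.7% and 53.8% of members had a UMI of it, beside 2.37% and 5.76% of other cells. MYOD1 stood at 470 and 233 CPM against 6.33 and 9.51. MYF5, the factor of early myoblasts, had 0 UMIs in all 1094 members, where the floor of 3 counts is 1.22 CPM in VC and 0.714 CPM in TNF. The bulk values listed 14 of the 15 regulators and MYF5 was not among them, so its absence is not read as particular to members. MEF2C, a partner of the MYOD1 family, stood at 453 and 277 CPM against 23.1 and 26.6.

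Fusion and adhesion genes gave 3 of 8: MYMK and MYMX, the membrane proteins that fuse myoblasts, and CDH15, the muscle cadherin. MYMX stood at 167 CPM in VC members and 84.5 in TNF members, against 1.77 and 3.58 in other cells. CDH15 stood at 297 and 171 CPM against 10.6 and 14.0. BOC, a receptor of myoblast contact, stood lower in VC members than in other cells, at 11.4 against 34.9 CPM, and at 30.9 against 36.6 in TNF.

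Metabolism and membrane genes were counted in the same way. Of 15 metabolic genes, 3 passed: ENO3, the muscle enolase, at 744 and 446 CPM against 19.0 and 29.3, COX6A2 and CKM. CKM, the creatine kinase of mature fibres, stood at 17.6 and 10.7 CPM against 0.469 and 0.333 in other cells. MB, the oxygen store myoglobin, had 49 and 39 UMIs. Of 11 dystrophin complex genes 3 passed, SGCA, SGCD and CAV3; SGCA, alpha-sarcoglycan, stood at 144 and 76.4 CPM against 3.87 and 6.15. DMD itself, which many cells transcribe, had log2 folds of 0.39 and 0.16. MSTN, the secreted brake on muscle growth, stood at 79.2 and 36.4 CPM against 2.14 and 2.06.

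The label of skeletal rather than cardiac or smooth muscle was checked against defining genes. The check rests on levels, since a count of 0 among 12 genes is also what the share over all genes (2.00% higher in both libraries) would give. Of 12 cardiac genes 0 were 2-fold higher, 1 had 50 or more UMIs in members, and their summed level was 20.4 CPM (15.1 to 26.9) in VC members and 24.7 CPM (20.2 to 29.98) in TNF members, against 36.5 and 26.9 CPM in other cells; the most abundant of them was TNNI3, with 28 and 57 UMIs. NKX2-5, TBX5, TBX20 and MYH6, which define cardiomyocytes, had 0 UMIs in members of both libraries. RYR2, the cardiac release channel, had 3 and 1 UMIs, beside 345 and 267 for RYR1. Of 12 smooth muscle genes 0 were 2-fold higher in both libraries. In VC 1 was higher (SYNPO2, an actin-binding protein also of skeletal muscle) and 2 lower (ACTA2 and ACTG2, the smooth muscle actins). Over all genes the VC shares were 3.72% and 2.81%. The 12 genes summed to 687 CPM in VC members and 1012 CPM in TNF members, below the 936 and 1354 CPM of other cells. MYH11 and MYOCD, which define smooth muscle, had at most 4 UMIs each in either library.

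Members were also set beside cells of a myogenic progenitor gate in the same organoids. Outside the muscle gate, 393 VC cells and 315 TNF cells had at least 2 of PAX7, MYF5, MYOD1, CDH15 and MSC, so the levels of these 5 genes in those cells are fixed by that gate. The gates overlap, since 61.4% of VC members and 21.2% of TNF members also met the progenitor gate. Its 5 genes summed to 783 CPM in VC members and 456 in VC progenitor-gate cells, and to 418 and 538 CPM in TNF. The summed muscle lists stood at 6881 CPM there in VC and 7713 CPM in TNF, between other cells and members. Of the 10160 genes, 130 (1.28%) were 2-fold higher in members than in these cells in both libraries and 30 (0.295%) lower. Among the 105 muscle-list genes the counts were 29 and 0. Progenitor-gate cells that met the muscle gate were counted as members. The order of the summed muscle lists and these counts thus follow in part from the sorting and are not a test. From a list of 12 muscle progenitor genes, 1 was 2-fold higher in members than in progenitor-gate cells in both libraries and 4 lower. Over all genes the shares were 1.28% and 0.295%. PAX3, an upstream factor of the myogenic lineage, stood at 5.31 CPM in VC members and 63.5 in progenitor-gate cells, and at 8.09 and 34.9 in TNF. DLK1, a secreted and membrane factor of fetal muscle, went the other way, at 93.5 against 7.77 CPM in VC and 135 against 13.6 in TNF. MYF6, the factor of late differentiation, stood at 83.7 against 122 CPM in VC and 56.1 against 125 in TNF, so it was not higher in members.

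Proliferation genes were lower in VC members. Of 12 genes of the dividing cell cycle, 10 were 2-fold lower than in other cells in VC and 0 in TNF, beside 2.81% and 0.00984% of all genes, so a count of 0 in TNF is that of genes in general. Their sum stood at 483 CPM in VC members and 771 in TNF members, against 1327 and 940 in other cells. TOP2A, the topoisomerase of mitotic chromosomes, stood at 52.7 CPM in VC members and 80.7 in TNF members, against 176 and 117 in other cells. MKI67 stood at 42.1 and 61.9 CPM against 111 and 76.2. From a list of 7 genes of cell cycle exit, 2 inhibitors of cyclin-dependent kinases were 2-fold higher in both libraries, beside 2.00% of all genes. CDKN1C stood at 1583 and 860 CPM against 510 and 411, and CDKN1A at 35.5 and 34.5 CPM against 3.34 and 6.80. The 7 genes summed to 1687 and 955 CPM in members, and to 1002 and 873 in progenitor-gate cells, so the TNF values were close. Of the 7, 1 was 2-fold above progenitor-gate cells in both libraries, beside 1.28% of all genes.

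Among members, levels of muscle genes differed with the number of gate genes detected, more regularly in TNF than in VC. The gate genes are themselves muscle genes, so a rise of muscle RNA with their number follows in part from the sorting. These values are thus a description and not a test. The number of gate genes also moves with depth: the median was 10013.5 UMIs with 4 gate genes and 11905 with 8 in VC, and 2821 and 6290 in TNF, though not in order between them. In TNF the summed muscle lists stood at 9395, 14045, 15390, 22345 and 42651 CPM in members with 4, 5, 6, 7 and 8 gate genes. In VC they stood at 19224, 23672, 27075, 24803 and 34309 CPM. The span from lowest to highest class was thus wider in TNF. MYOG in TNF stood at 371, 706, 759, 848 and 1620 CPM over the same classes, while in VC it stood at 1410, 1402, 1689, 1144 and 1356. COX6A2, MYF6 and DLK1 lay highest in cells with all 8 gate genes in both libraries. COX6A2 stood at 6.97 CPM with 4 gate genes and 150 with 8 in VC, and at 12.9 and 186 in TNF. MYF6 stood at 32.5 and 115 CPM in VC, and at 25.8 and 190 in TNF. DLK1 stood at 25.6 and 200 CPM in VC, and at 41.7 and 552 in TNF. MYMX, needed while cells fuse, went the other way in VC, at 260 and 99.4 CPM, and stood at 74.9 and 89.7 in TNF. The proliferation list stood at 741 CPM (662 to 827) with 4 gate genes and 279 (246 to 316) with 8 in VC, and at 924 (878 to 972) and 275 (236 to 319) in TNF.

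**Figure D3:**
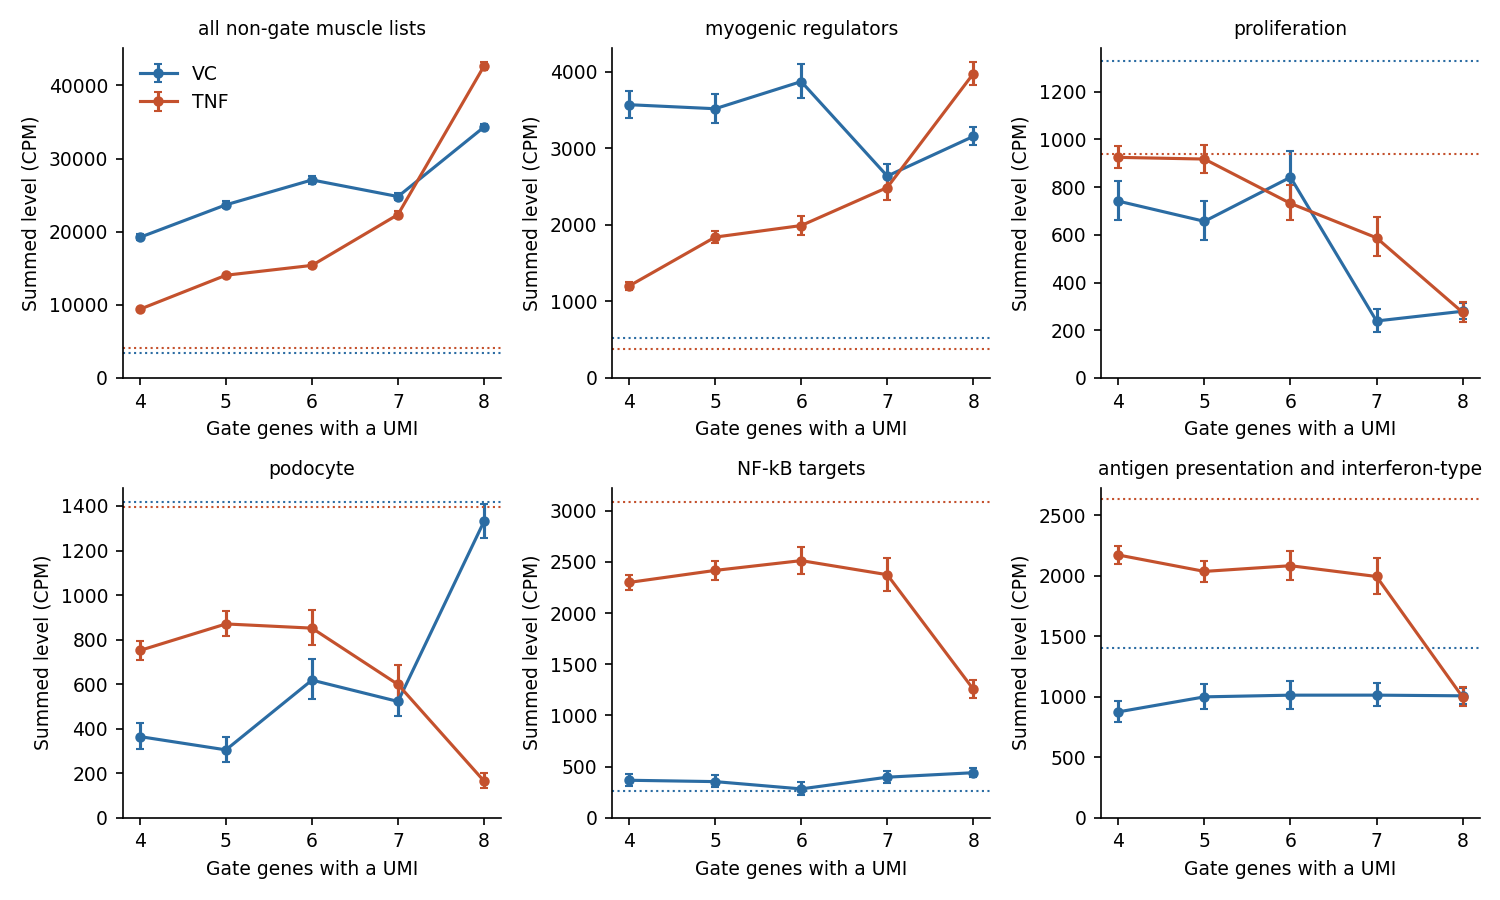
Summed level (CPM) of 6 gene lists in members with 4 to 8 gate genes, in VC (blue) and TNF (red), with 95% Poisson bars; dotted lines are all other cells of each library. The muscle and NF-kB panels show TNF rising to 42651 CPM and falling to 1257 CPM at 8 gate genes, and the podocyte panel shows opposite courses in the libraries.

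Transcripts of other kidney organoid cells were also present in members. Podocyte genes (8, among them NPHS1 and PODXL of the slit diaphragm and cell surface) summed to 771 CPM (736 to 806) in VC members and 692 (667 to 718) in TNF members, against 1418 and 1393 CPM in other cells. By gate genes the libraries ran in opposite directions. In VC the podocyte list stood at 365 CPM with 4 gate genes and 1331 (1257 to 1408) with 8; in TNF it stood at 751 and 165 (135 to 200). Of VC members, 20.9% also passed the podocyte gate, and of TNF members 19.5%, against 15.0% and 22.3% of other cells. That gate counts detected genes, and members were deeper than other cells. Median UMIs were 11269 against 6313.5 in VC and 3093.5 against 2586 in TNF, so these shares are not read as enrichment. A doublet caller marked 15.0% of VC members and 15.1% of TNF members, against 7.08% and 30.1% of other cells. It marked 16.2% of VC members with at least 6 gate genes and 3.03% of such TNF members. Doublets were left in, and their part in these values was not tested. Endothelial genes (8) summed to 86.1 CPM in VC members and 67.3 in TNF members, against 127 and 129 CPM in other cells. Most of it was CLDN5, a tight junction gene that podocytes also make, with 202 and 242 UMIs, while CDH5, which defines endothelium, had 0 in both libraries and PECAM1 0 and 1. Immune genes (8) summed to 18.8 and 38.07 CPM against 33.3 and 48.7, most of it AIF1 with 36 and 142 UMIs; CD3E had 0 in both libraries and PTPRC 1 and 0. Neuron genes (8) summed to 456 and 734 CPM against 1809 and 1018, with 6 of 8 2-fold lower in VC members and 0 in TNF members, beside 2.81% and 0.00984% of all genes. Stromal genes (8) summed to 216 and 401 CPM against 578 and 578. Of these, 4 of 8 were 2-fold lower in VC and 0 in TNF, beside the same 2.81% and 0.00984%. For both lists a count of 0 in TNF is that of genes in general.

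TNFα treatment was compared within members, 1 library against 1. TNFα binds the receptor TNFRSF1A, and the signal frees the transcription factor NF-kB to switch on chemokines, adhesion molecules and its own inhibitor NFKBIA. Of the 10160 genes, 105 (1.03%) were 2-fold higher in TNF members than in VC members and 30 (0.295%) lower. With at least 6 gate genes the counts were 65 (0.640%) and 65 (0.640%). In all other cells, over the same genes, they were 68 (0.669%) and 5 (0.0492%). TNFRSF1A stood at 23.7 CPM in VC members and 33.3 in TNF members, with 58 and 140 UMIs, below the 48.1 and 53.9 CPM of other cells. TNFRSF1B, the second receptor, had 0 and 5 UMIs.

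Of 24 NF-kB targets, 12 were 2-fold higher in TNF members and 0 lower, beside 1.03% and 0.295% of all genes. Their median log2 difference was 1.06, beside 0.02 over all genes. In other cells 13 were higher, beside 0.669% of all genes, with a median of 1.44. With at least 6 gate genes 10 were higher, beside 0.640% of all genes. CCL2 alone made up 823 CPM of the sum in TNF members given next. The summed list stood at 387 CPM (363 to 412) in VC members and 2205 (2160 to 2250) in TNF members, a ratio of 5.70 (5.33 to 6.10). In other cells it stood at 262 and 3083 CPM, a ratio of 11.8 (11.6 to 11.9). In members with at least 6 gate genes the ratio was 4.89 (4.49 to 5.34).

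CCL2, a chemokine that attracts monocytes, stood at 21.2 CPM in VC members and 823 in TNF members, a ratio of 38.8 (29.5 to 52.02). In other cells it stood at 31.1 and 1255 CPM, a ratio of 40.3 (38.9 to 41.8). A UMI of it was present in 8.18% of VC members and 76.9% of TNF members, beside 9.57% and 78.8% of other cells, so the share in members is not read as expression of their own. CXCL10, a chemokine of T cells, had 0 UMIs in VC members and 238 in TNF members, 46.2 times the floor of 3 counts over all VC members; the exact interval of its ratio reached down to 37.3. VCAM1, an adhesion receptor, stood at 18.8 and 164 CPM in members and 22.1 and 263 in other cells. NFKBIA stood at 52.3 and 298 CPM in members and 73.3 and 419 in other cells. IL32, a cytokine, already stood at 198 CPM in VC members against 21.5 in other VC cells, and reached 525 CPM in TNF members against 568 in other TNF cells. Its ratio of TNF to VC was 2.65 (2.40 to 2.93) in members and 26.5 (25.4 to 27.7) in other cells.

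The other largest rises were FDCSP, SULT1E1, TNFRSF4, UBD, SST and LGALS1. FDCSP, a secreted peptide, stood at 2.04 CPM in VC members and 230 in TNF members, and at 0.448 and 238 in other cells. UBD, a ubiquitin-like protein induced by cytokines, had 0 and 215 UMIs in members. SST, the hormone somatostatin, stood at 3.27 and 58.8 CPM in members, while in other cells it stood at 89.8 and 94.8. SST was not higher in members alone, since it stood at 9.55 and 92.6 CPM in progenitor-gate cells and at 57.9 and 156 in podocyte-gate cells, and it had 2 and 3 UMIs in members with all 8 gate genes. FDCSP, SULT1E1, TNFRSF4 and UBD were 2-fold or more higher in other cells too, and LGALS1 had log2 differences of 1.94 in members and 0.89 in other cells. The largest falls were LEFTY1, ANKRD37, GPX3, CLEC18B, PITX1, APOA1, S100A4, TTN, CLEC18C and SYNPO2L, of which CLEC18B and CLEC18C are near-identical copies whose reads may be shared. LEFTY1, a secreted inhibitor of nodal signalling, stood at 38.4 CPM in VC members and 6.66 in TNF members, and at 26.7 and 8.79 in other cells. SYNPO2L, a muscle actin-binding protein, stood at 109 and 43.3 CPM in members and 0.499 and 1.60 in other cells. With at least 6 gate genes SYNPO2L, PITX1 and TTN were no longer 2-fold lower, at log2 differences of −0.46, −0.70 and −0.58, and the other 7 still were. In members with 4 or 5 gate genes the picture differed: SYNPO2L, PITX1, TTN and ANKRD37 were 2-fold lower, and the other 6 were not, at log2 differences from −0.91 for APOA1 to 0.17 for S100A4. ANKRD37 was thus the 1 of these 10 that was 2-fold lower in both subsets. Of the UMIs in VC members, 92 of 116 for S100A4 and 68 of 94 for LEFTY1 were in the 63 cells with all 8 gate genes.

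Antigen presentation genes had a smaller ratio. Of 18 genes 6 were 2-fold higher in TNF members and 0 lower, beside 1.03% and 0.295% of all genes. Their sum stood at 985 and 1935 CPM, a ratio of 1.96 (1.88 to 2.06). In other cells 6 were likewise higher, beside 0.669% of all genes, and the ratio was 1.88 (1.86 to 1.89). With at least 6 gate genes 3 were higher in TNF members, beside 0.640% of all genes, and the ratio was 1.59 (1.498 to 1.698). B2M, the light chain of class I molecules, stood at 177 and 488 CPM in members and 295 and 691 in other cells. HLA-B had 7 and 162 UMIs in members; class I genes are alike enough that reads may be shared between them.

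The inflammatory values were lowest in the TNF cells with most muscle RNA. The NF-kB list stood at 2299, 2417, 2512 and 2375 CPM in TNF members with 4 to 7 gate genes and at 1257 (1171 to 1347) with 8, against 441 (399 to 486) in VC members with 8. CCL2 stood at 852 CPM with 4 gate genes, 840 with 7 and 208 with 8. The antigen presentation list stood at 2172 CPM with 4 gate genes and 999 (922 to 1079) with 8, where VC members with 8 gate genes stood at 1008 (944 to 1076). IL32 did not follow this, at 478 CPM with 4 gate genes and 584 with 8. In the same TNF cells with 8 gate genes the podocyte list was also lowest, at 165 CPM, and their median depth was highest, at 6290 UMIs. What part RNA from other cells had in the values at 4 to 7 gate genes was not tested.

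**Figure D4:**
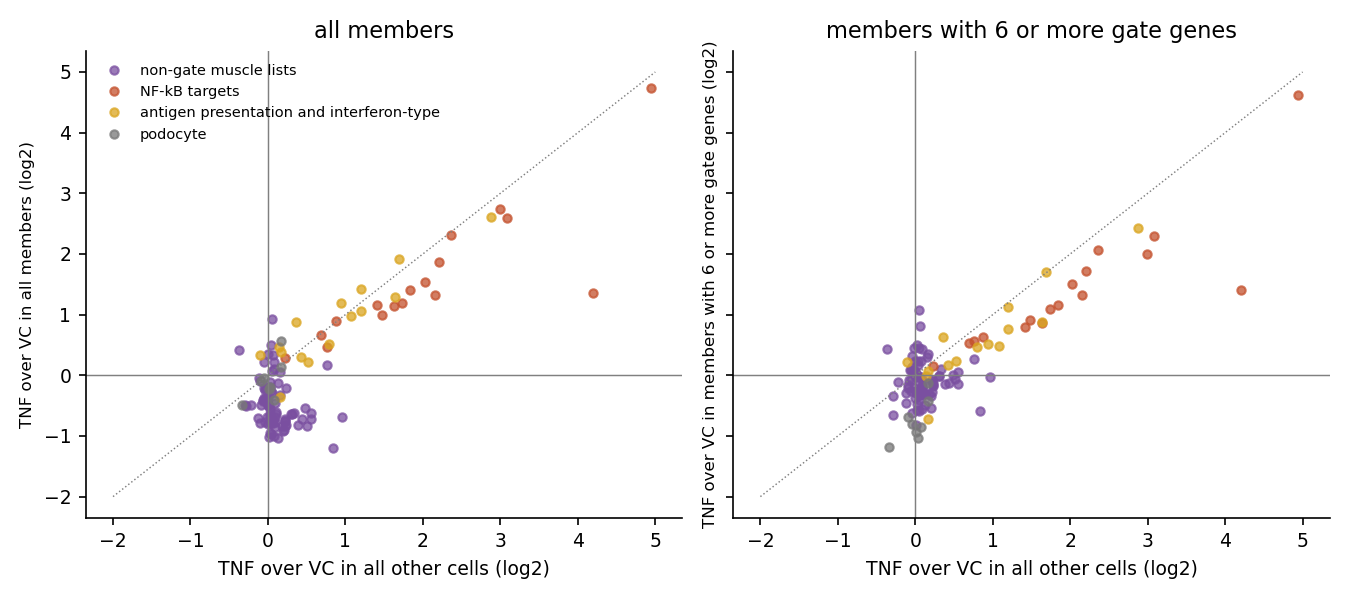
Log2 of TNF over VC (CPM plus 10) for genes of 4 kinds of list with at least 50 UMIs in members, in all other cells (horizontal) against all members (left) or members with at least 6 gate genes (right); the dotted line marks equal values. NF-kB targets lie right of 0 and mostly under the line, with IL32 farthest from it, and muscle genes lie lower in the left plot (median −0.47 over all 105) than in the right (−0.10).

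Of the 105 muscle-list genes, 4 (TTN, CSRP3, RYR1 and CHRND) were 2-fold lower in TNF members and 0 higher, beside 0.295% and 1.03% of all genes. With at least 6 gate genes 0 were lower and 1 higher, counts that the shares over all genes (0.640% and 0.640%) would also give. The summed level and the median also differed with how many gate genes a member had. The median log2 difference of the 105 genes was −0.47 in all members and −0.10 in those with at least 6 gate genes, beside 0.03 in other cells. The summed lists gave a TNF to VC ratio of 0.636 (0.629 to 0.642) in all members, 0.929 (0.917 to 0.941) with at least 6 gate genes, and 1.24 (1.22 to 1.26) with all 8. MYOG gave 0.532 (0.507 to 0.559) in all members and 0.835 (0.784 to 0.889) with at least 6. TTN gave 0.430 (0.410 to 0.451) and 0.666 (0.628 to 0.707). The summed level was thus lower in TNF over all members and higher in members with 8 gate genes.

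In the bulk libraries, of isolated spheroids at day 25, the muscle genes were spread to both sides of 0. Values there are log2 of CPM plus 1, from totals of 54299682 and 52553823 reads at 24 h (VC and TNF) and 49948198 and 59246286 at 48 h. MYOG stood at 2.66 in VC and 2.15 in TNF at 24 h, and at 3.63 and 3.42 at 48 h. ACTC1 stood at 3.67 and 3.61, and at 4.87 and 4.66. Of the 105 muscle-list genes 83 were listed; 24 were higher in TNF at both times and 40 lower, beside 28.6% and 39.7% of all 21093 genes. Of 23 listed NF-kB targets, 22 were higher at both times. Fewer muscle cells and less muscle RNA per cell cannot be told apart in bulk samples, and with 1 library a group no difference was tested.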

How the data were processed

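Single cells of kidney organoids (VC and TNF, 1 library each) were sequenced with the 10x Genomics 3′ v3 kit. The deposited UMI counts per gene and barcode (36601 genes) were used as the authors made them; the file headers name Cell Ranger 6.0.1, while the processing notes name Cell Ranger 2.1.1 and the builds hg19 and hg38 without saying which library each belongs to. Gene symbols come from the files. The deposited bulk values are log2 of CPM plus 1 made by the authors, from STAR 2.7.8a and HTSeq 0.11 counts per the processing notes; whole reads were recovered from 100% of values (tolerance 0.01 reads). Columns not mapped to a sample numbered 0.

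Barcodes with over 500 detected genes were kept (11906 of 12494 VC and 23160 of 23160 TNF). UMIs were summed over the cells of a class and scaled to CPM; log2 folds used a pseudocount of 10 CPM. A gene was compared when members held at least 50 UMIs over both libraries or other cells at least 50 CPM in both, and was counted at 2-fold. Cells are not replicates and each condition has 1 library, so no test was run; shares have Clopper-Pearson, levels Poisson and ratios exact conditional 95% intervals. The depth was 100623461 UMIs in VC cells and 91152175 in TNF cells, and the floor was 3 counts. Summing, the fold rule and thinning were tested on simulated counts. Comparison gates outside the muscle gate were at least 4 of 8 podocyte or stromal genes and at least 2 of 5 myogenic progenitor genes.

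Genes named are those of the lists, the 10 highest and 10 lowest folds over other cells in both libraries (no gene qualified as lowest), and the 10 largest rises and falls in TNF members with at least 50 UMIs; mitochondrial and sex-linked marker genes were not named, and a few list genes are not reported here on their own. Members and lists were chosen with earlier results of these data known. The gate of 6 genes was planned as an alternative; giving its values beside some of the main results was decided after the shares were seen, and the bulk values and promoter letters were added then too.

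Doublets were called with Scrublet in scanpy 1.11.5. Its default expected rate called almost none, so the rate was set, after seeing that, to 0.8% per 1000 barcodes, 9.995% in VC and 18.53% in TNF; called doublets were kept. Alternatives were gates of at least 3 and 6 genes, a minimum of over 1000 detected genes, no UMI minimum, CPM without mitochondrial and gate genes, left-out doublets, thinning to 1500 UMIs, mean CPM per cell and pseudocounts of 1 and 50 CPM. Python 3.11.15, numpy 2.4.6, scipy 1.17.1 and pandas 2.3.3 were used. The day 25 single-cell library and the bulk libraries without TNFα were not used here.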

Additional observations from a re-analysis of the deposited data

Results flagged for a closer look

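Each gene here went one way with TNFα in members and the other way in all other cells, by at least 0.5 on the log2 scale (TNF over VC, CPM plus 10) in each; with 1 library a condition the difference was not tested. Among muscle genes, members were lower in TNF while other cells were higher: ACTC1 at −0.69 in members and 0.96 in other cells, MYL4 at −0.83 and 0.51, MYOG at −0.90 and 0.61, TNNI1 at −0.72 and 0.55, TNNT2 at −0.63 and 0.56, and TTN at −1.20 and 0.84. In members with at least 6 gate genes these stood at −0.03, −0.06, −0.26, −0.14, 0.05 and −0.58. The gate genes, whose level in both classes the gate limits, stood 5.28 times (5.06 to 5.51) higher in other TNF cells than in other VC cells; their part in these values was not tested.

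Genes of dividing cells went the other way, higher in TNF members and lower in other TNF cells: CENPF at 0.57 and −0.62, TOP2A at 0.53 and −0.55, and UBE2C at 0.63 and −0.56. In members with at least 6 gate genes they stood at 0.34, 0.14 and 0.39. The neuronal genes GAP43 at 0.85 and −0.89, STMN2 at 0.73 and −0.96, and TUBB3 at 0.90 and −0.71 did likewise. With at least 6 gate genes they stood at 0.90, 0.69 and 0.80. The share of other cells that met other gates also differed between the libraries. A gate on neuron genes held 17.5% of them in VC and 7.64% in TNF. The stromal gate held 17.3% and 5.89%, and the podocyte gate 15.0% and 22.3%. These gates count detected genes, and other cells held a median of 6313.5 UMIs in VC and 2586 in TNF. With all cells thinned to 1500 UMIs, the podocyte gate held near-equal shares, 1189 of 10953 cells in VC and 2548 of 23160 in TNF. The neuron and stromal gates were not thinned. What part make-up or depth had in the values of other cells was not tested.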

How the results depend on the processing

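Over 8 results and 10 settings, 66 values were computed; 21 moved and 0 reversed, where a move was past the counting interval of a share, 1.5 times a count, or the counting interval of a list's median gene. That last interval is wide, and within it the muscle-list median of TNF over VC went from −0.47 to −0.10 with at least 6 gate genes and to −0.24 at a pseudocount of 50 CPM. The member share was 2.33% in VC and 6.61% in TNF with at least 3 gate genes, 1.14% and 1.14% with at least 6, 1.07% and 1.96% after thinning to 1500 UMIs, and 4.55% in TNF without called doublets. Genes 2-fold from other cells in both libraries numbered 352 (317 higher, 35 lower) with at least 6 gate genes, 372 (350 and 22) at a pseudocount of 1 CPM and 73 (73 and 0) at 50 CPM, against 203. The muscle-list median was 2.40 in VC and 1.87 in TNF at 1 CPM, 0.47 and 0.25 at 50 CPM, and 1.36 in TNF with at least 6 gate genes. Genes 2-fold apart between TNF and VC members numbered 299 of 2715 compared (234 higher, 65 lower) after thinning, 327 (222 and 105) for mean CPM per cell, 426 (303 and 123) at 1 CPM and 21 (19 and 2) at 50 CPM, against 135 of 10160 (105 and 30); with at least 6 gate genes, and the UMI minimum applied to those members, they numbered 108 of 7145 (52 and 56). The NF-kB median was 1.82 at 1 CPM and 0.41 at 50 CPM. The cause of these moves was not tested, except that a larger pseudocount shrinks folds of low genes by construction.

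The Scrublet threshold moved with the expected rate, so its calls are only a rough guide. No paired analysis was possible because each condition has 1 single-cell library. The floor of 3 counts over all members was 1.22 CPM in VC and 0.714 CPM in TNF; the two-sided 95% Poisson interval of 0 UMIs in VC members reached 1.51 CPM.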

Other observations

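Of 39 HOX genes, which mark position along the body axis, 9 were 2-fold lower than in other cells in VC and 0 in TNF, beside 2.81% and 0.00984% of all genes compared, and 0 were 2-fold higher, where all genes gave 3.72% and 2.03%; HOXA9 stood at 80.0 CPM in VC members and 81.6 in TNF members, against 146 and 121 in other cells. Of 8 glia and neural crest genes, 5 were 2-fold lower in VC members and 1 higher, beside 2.81% and 3.72% of all genes. In TNF members 0 were either, beside 0.00984% and 2.03%. The sum of the 8 stood at 179 and 134 CPM against 389 and 207. The 1 higher gene, named after its values were seen, was ERBB3, a neuregulin receptor of glia and muscle, at 105 and 43.5 CPM against 35.6 and 22.4. Of 10 insulin-like growth factor genes, 1 (IGF1, at 32.2 against 85.0 CPM) was 2-fold lower in VC and 0 were 2-fold higher, a count that the share over all genes would also give. IGF2, the fetal growth factor, stood at 53.1 and 49.96 CPM against 33.1 and 41.2, and IGFBP5, which binds it, at 503 and 563 CPM against 983 and 798.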
